A study of Homo sapiens with 6 samples.

Results

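The genes described here encode the enzymes that set the committed step of glycolysis: the 3 phosphofructokinase subunits PFKL, PFKM and PFKP, the bifunctional enzymes PFKFB2, PFKFB3 and PFKFB4, the phosphatase TIGAR and the fructose bisphosphatase FBP1. They were taken by symbol from the deposited table, which held 1 row for each, so 8 of 60664 genes are covered. RNA-seq was performed in 67R cells, an NCI-H1975 lung adenocarcinoma line with mutant EGFR that acquired resistance during stepwise exposure to ASK120067, a third-generation inhibitor of EGFR. The labels name 3 libraries NC, cells given a negative control small interfering RNA (siNC), and 3 libraries BCAT1 knockdown, cells given siRNA against BCAT1 (siBCAT1), and all 6 libraries come from the same resistant line. Under the name siBCAT1 the study lists 1 siRNA sequence. Other effects of that siRNA cannot be told apart from loss of BCAT1 in this design. The comparison asks whether loss of BCAT1, the cytosolic enzyme that transfers the amino group of branched-chain amino acids, alters the transcripts of glycolytic enzymes in resistant cells. The time after transfection and whether the 3 libraries of a group are separate cultures are not given in the sources used here, so p-values measure only the spread between these libraries.

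Phosphofructokinase (PFK) works as a tetramer of liver-type (PFKL), muscle-type (PFKM) and platelet-type (PFKP) subunits and phosphorylates fructose 6-phosphate to fructose 1,6-bisphosphate, a step that is irreversible in cells. Its strongest allosteric activator is fructose 2,6-bisphosphate, which the PFKFB enzymes both make with a kinase domain and remove with a phosphatase domain. PFKFB3 is known for high kinase relative to phosphatase activity, TIGAR carries a related phosphatase domain that breaks down fructose 2,6-bisphosphate, and FBP1 runs the PFK step in reverse during gluconeogenesis.

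Levels are given in TPM, a relative abundance of transcripts per gene, a unit that corrects for how long a gene is and how much was sequenced, so that levels of different genes can be compared. The file holds no read counts, so total depth is unknown and precision rests on the spread between libraries. BCAT1 itself averaged 38.2 TPM in siNC (SD 7.33, n = 3) and 7.96 TPM after knockdown (SD 0.841, n = 3), and all siBCAT1 libraries were lower. Differences are on the scale of log2(TPM + 1), which understates the change of weakly expressed genes, and were tested with limma in the 14286 genes that averaged 1 TPM or more, with Benjamini-Hochberg adjustment over all of them. Of these genes, 27.1% differed at an adjusted p under 0.05, 16.7% higher and 10.4% lower in siBCAT1 cells, 3865 in all. The count was between 2318 and 2503 without siNC replicate 1, siNC replicate 3 or any 1 siBCAT1 library, and 3706 without siNC replicate 2. The excess of higher calls (2382 against 1483 lower) depended on the scaling. It was 1949 against 1822 under median-ratio scaling and 2042 against 1865 under quantile normalization. The keratins KRT7, KRT8 and KRT18 were at 342.1 TPM or more in every library, whereas EPCAM was at 2.61 TPM or less and the lung adenocarcinoma markers NKX2-1, NAPSA, SFTPA1 and SFTPB summed to at most 0.42 TPM, so the lung lineage of the label is not visible in these transcripts. The means of the keratins and CDH1 were lower after knockdown. KRT19 averaged 91.3 TPM in siNC and 33.9 TPM in siBCAT1, and CDH1 19.7 and 3.10 TPM. EPCAM went the other way, from 1.27 to 2.33 TPM. The summed level of the 6 epithelial markers, mostly keratin, averaged 2722 TPM in siNC and 1784 TPM in the knockdown libraries. Its part in the results was not tested. The leukocyte, endothelial and fibroblast markers summed to at most 3.67, 2.61 and 6.49 TPM per library. In bulk RNA, fewer cells of a type and less RNA per cell cannot be told apart.

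Of the 8 genes, 7 passed the filter on low values and FBP1 did not. BCAT1 knockdown was accompanied by a fall of PFKP and PFKFB4 and a rise of PFKL, that is 2 of 7 lower against a background of 10.4% and 1 of 7 higher against 16.7%. PFKM, PFKFB2, PFKFB3 and TIGAR did not pass the threshold. The groups did not overlap for PFKL, higher after knockdown, or for PFKP, PFKFB2 and PFKFB4, lower; over all genes tested the groups were apart for 44.1%, with 26.1% higher and 18.0% lower. The median log2 fold change of the 7 genes was -0.32, against 0.04 over all genes. The 3 calls from limma were the same under all 13 alternatives run.

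**Figure D1:**
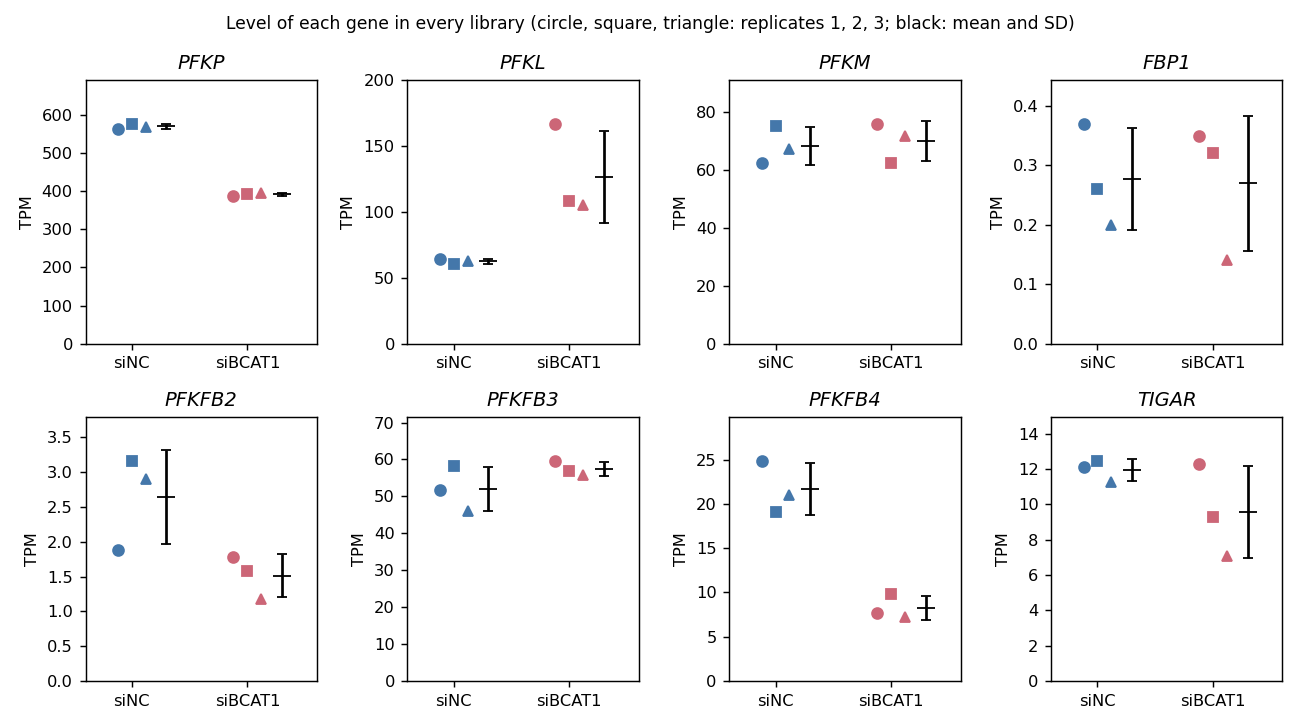
TPM (linear axis from 0, scaled per gene) of the 8 genes in the 3 siNC (blue) and 3 siBCAT1 (red) libraries; marker shapes are replicate numbers and black bars are mean and SD. All siBCAT1 points of PFKP and PFKFB4 lie below the siNC points, those of PFKL lie above, and siBCAT1 replicate 1 stands highest for PFKL at 167 TPM.

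PFKP was the predominant subunit. It was at 564.9, 577.7 and 569.5 TPM in replicates 1, 2 and 3 of siNC, compared with 388.2, 393.8 and 396.2 TPM in those of siBCAT1. The libraries of a group were nearly equal, with a coefficient of variation of 1.14% in siNC and 1.05% in siBCAT1, and the groups were far apart. The mean of 392.7 TPM in siBCAT1 was 0.688 times that in siNC (570.7 TPM). The log2 fold change was -0.54 (standard error 0.04, 95% interval -0.63 to -0.45, adjusted p = 0.000269). PFKP was expressed above 98.1% of the genes tested, and by size its fall ranked 801 of the 1483 genes called lower. The gene lies on the plus strand of chromosome 10 (3066333 to 3137712, GRCh38, GENCODE 29) and has 12 annotated transcripts, which a value per gene does not separate. It shares 120 exonic bases on the same strand with AL451164.3, which averaged 0.610 TPM (siNC) and 0.150 TPM (siBCAT1).

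PFKL moved in the opposite direction. It was at 64.3, 60.0 and 62.6 TPM in replicates 1, 2 and 3 of siNC, compared with 166.9, 108.1 and 105.0 TPM in those of siBCAT1. The siNC libraries were close to each other (coefficient of variation 3.45%), while siBCAT1 replicate 1 stood well above the other two and raised that of siBCAT1 to 27.5%. PFKL rose 2.03-fold in the means, or by 0.98 on the log2 scale (standard error 0.17, 95% interval 0.58 to 1.37, adjusted p = 0.00621). Without siBCAT1 replicate 1 the log2 fold change was 0.76 and the adjusted p 0.00461. By size the rise ranked 247 of the 2382 genes called higher. PFKL lies on the plus strand of chromosome 21 (44300051 to 44327376).

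PFKM did not pass the threshold. It was at 62.5, 75.2 and 67.2 TPM in replicates 1, 2 and 3 of siNC, compared with 76.0, 62.5 and 71.9 TPM in those of siBCAT1. The groups overlapped, with the lowest values of both at about the same level. The log2 fold change was 0.04 (standard error 0.10, 95% interval -0.20 to 0.27, adjusted p = 0.821), and its sign turned under median-ratio scaling, under quantile normalization and without siNC replicate 1 or siBCAT1 replicate 1. On chromosome 12 (48105139 to 48146404) PFKM shares 628 exonic bases with SENP1 on the opposite strand. SENP1 averaged 7.23 TPM (siNC) and 7.93 TPM (siBCAT1). The libraries were stranded, but whether reads were assigned by strand is not given in the sources used here.

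The make-up of PFK transcripts followed from these 3 genes. PFKP made up 81.7%, 81.0% and 81.4% of the summed PFK TPM in siNC replicates 1, 2 and 3, and 61.5%, 69.8% and 69.1% in siBCAT1 replicates 1, 2 and 3. The PFKL share was 9.30%, 8.42% and 8.96% in the siNC libraries and 26.4%, 19.2% and 18.3% in the siBCAT1 libraries, in the same order. The share of PFKM was between 9.03% and 10.6% in siNC and between 11.1% and 12.5% in siBCAT1 cells. No share overlapped between the groups, and siBCAT1 replicate 1 lay farthest from siNC in the shares of PFKP and PFKL. On average the PFKP share was 14.6 percentage points lower (81.4% ± 0.325 against 66.8% ± 4.60, SD, n = 3 each), the PFKL share 12.4 points higher (8.89% ± 0.442 against 21.3% ± 4.47) and the PFKM share 2.15 points higher (9.73% ± 0.767 against 11.9% ± 0.749). Shares of a sum depend on each other: the PFKM share was higher although its own level overlapped between the groups.

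**Figure D2:**
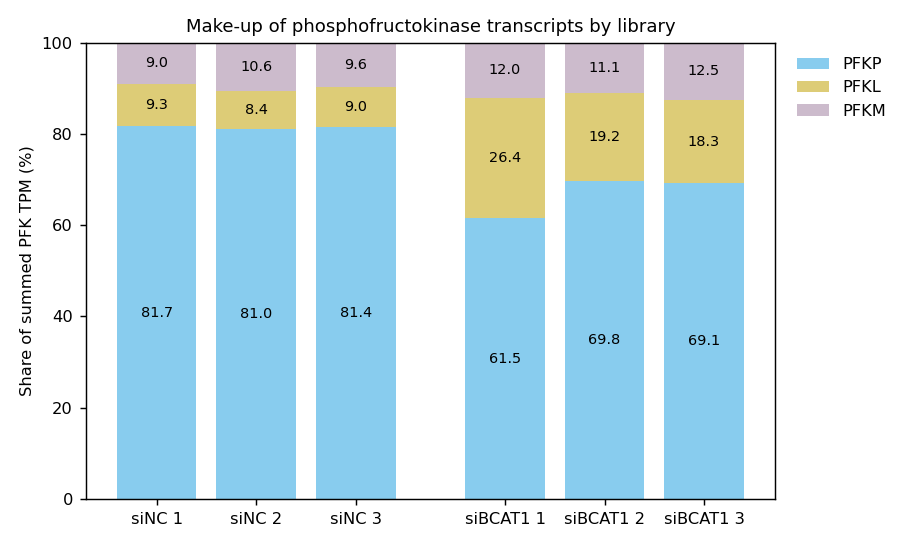
Stacked bars of the share (%) of PFKP, PFKL and PFKM in the summed PFK TPM of each library, siNC at left and siBCAT1 at right. PFKP fills 81.0% or more of every siNC bar and 69.8% or less of every siBCAT1 bar, and the PFKL part is widest in siBCAT1 replicate 1 (26.4%).

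There were 9.17 PFKP transcripts per PFKL transcript in siNC cells (SD 0.424, n = 3) and 3.25 in siBCAT1 cells (SD 0.801, n = 3), and the log2 ratio of PFKL to PFKP was higher by 1.53. The rise of PFKL did not make up for the fall of PFKP: PFKP lost 177.9 TPM and PFKL gained 64.4 TPM, 36.2% of that loss. The summed PFK level was 691.7, 713.0 and 699.3 TPM in siNC replicates 1, 2 and 3 and 631.1, 564.4 and 573.1 TPM in siBCAT1 replicates 1, 2 and 3, without overlap. Its mean changed by -15.9% (701.3 ± 10.8 TPM in siNC, 589.5 ± 36.3 TPM after knockdown, SD, n = 3 each). Each of the PFK shares, the sum and the ratio gave p = 0.1 in a two-sided exact permutation test, the smallest that 3 libraries against 3 allow, and p = 0.112 after adjustment over the 9 such tests, so none could reach 0.05. Without siBCAT1 replicate 1, the difference in share was -11.9 points for PFKP and 9.85 points for PFKL.

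Among the genes of fructose 2,6-bisphosphate turnover, PFKFB4 changed most. It was at 24.9, 19.1 and 21.0 TPM in replicates 1, 2 and 3 of siNC, compared with 7.70, 9.78 and 7.19 TPM in those of siBCAT1. The highest siBCAT1 library was well below the lowest siNC library. PFKFB4 fell to 0.380 times its siNC mean, from 21.7 ± 2.92 to 8.22 ± 1.37 TPM (SD, n = 3 each). On the log2 scale it changed by -1.30 (standard error 0.14, 95% interval -1.63 to -0.97, adjusted p = 0.00110). It had the largest change of the 7 genes tested, and its fall ranked 107 of the 1483 genes called lower. The gene lies on the minus strand of chromosome 3 (48517684 to 48562015). It shares 289 exonic bases with UCN2 on the same strand, which averaged 2.60 TPM (siNC) and 1.55 TPM (siBCAT1), so a part of the reads there could belong to either gene.

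PFKFB3 was the most abundant PFKFB transcript. It was at 51.8, 58.1 and 46.0 TPM in replicates 1, 2 and 3 of siNC, compared with 59.6, 56.8 and 55.9 TPM in those of siBCAT1. The groups overlapped through siNC replicate 2. Its log2 fold change of 0.15 did not pass the threshold (standard error 0.09, 95% interval -0.07 to 0.36, adjusted p = 0.284). The log2 fold change was 0.063 without siNC replicate 3 and 0.23 without siNC replicate 2, with adjusted p of 0.599 and 0.0766. PFKFB3 lies on the plus strand of chromosome 10 (6144934 to 6254644).

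PFKFB2, known as the cardiac form, was near the filter. It was at 1.88, 3.16 and 2.90 TPM in replicates 1, 2 and 3 of siNC, compared with 1.78, 1.58 and 1.18 TPM in those of siBCAT1. Every siBCAT1 library was below every siNC library, by a gap of only 0.1 TPM between the nearest pair; of all genes tested, 18.0% had groups apart in this direction. The log2 fold change was -0.53 (standard error 0.21, 95% interval for this gene alone -1.02 to -0.04), with an adjusted p of 0.104. On chromosome 1 (207034366 to 207081024) PFKFB2 shares 315 exonic bases with YOD1 on the opposite strand, which averaged 7.11 TPM (siNC) and 4.70 TPM (siBCAT1), so that YOD1 was above PFKFB2 and its mean was also lower after knockdown; its part in the PFKFB2 values was not tested.

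With PFKFB1, which was at 0.09 to 0.22 TPM, the PFKFB transcripts summed to 78.7, 80.5 and 70.0 TPM in siNC replicates 1, 2 and 3 and to 69.3, 68.3 and 64.3 TPM in siBCAT1 replicates 1, 2 and 3. PFKFB3 held 65.9%, 72.2% and 65.7% of this sum in siNC and 86.0%, 83.2% and 86.8% in siBCAT1 cells. PFKFB4 held 31.6%, 23.8% and 30.0% in siNC and 11.1%, 14.3% and 11.2% in siBCAT1 cells. For both genes the shares did not overlap, and on average PFKFB3 was 17.4 percentage points higher while PFKFB4 differed by -16.3 points. The PFKFB2 share overlapped between the groups, at 2.39% to 4.14% in siNC and 1.83% to 2.57% in siBCAT1 cells. There were 2.44 PFKFB3 transcripts per PFKFB4 transcript in siNC (SD 0.524, n = 3) and 7.10 in siBCAT1 cells (SD 1.12, n = 3). The mean of the sum changed by -11.9%. The exact permutation p was 0.1 for the sum and for the shares of PFKFB3 and PFKFB4, again the smallest possible (0.112 adjusted), and 0.2 for the share of PFKFB2.

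**Figure D3:**
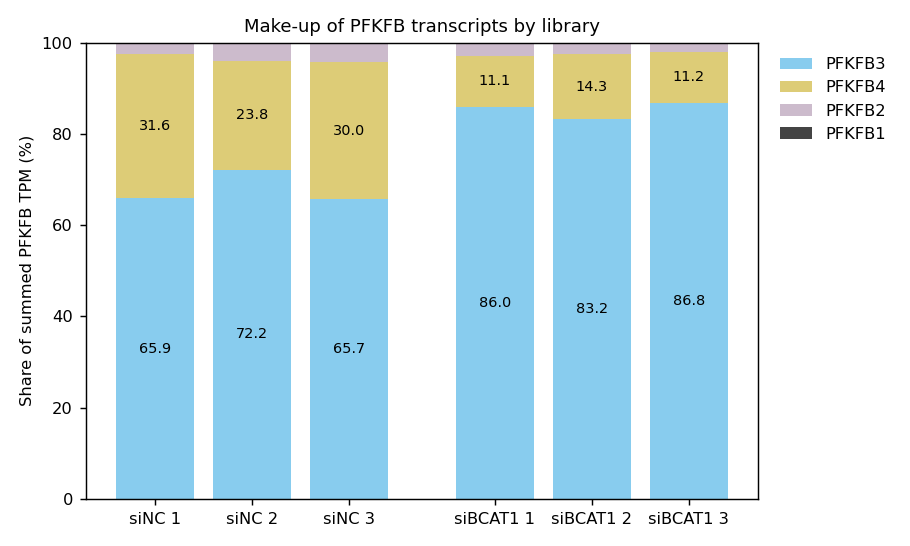
Stacked bars of the share (%) of PFKFB3, PFKFB4, PFKFB2 and PFKFB1 in the summed PFKFB TPM of each library; parts of 5% or less carry no printed value and PFKFB1 is too small to see. PFKFB4 takes 23.8% or more of each siNC bar and 14.3% or less of each siBCAT1 bar.

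TIGAR was at 12.1, 12.5 and 11.3 TPM in replicates 1, 2 and 3 of siNC, compared with 12.3, 9.31 and 7.09 TPM in those of siBCAT1. In siBCAT1 replicate 1 it was within the siNC range and in the other two it was below, so the groups overlapped. The log2 fold change of -0.32 did not pass the threshold (standard error 0.18, 95% interval -0.73 to 0.09, adjusted p = 0.221). Without siBCAT1 replicate 1 it was -0.50 (adjusted p = 0.0646), and without siBCAT1 replicate 3 it was -0.14 (adjusted p = 0.510). TIGAR, on chromosome 12 (4307763 to 4354593), shares 1711 exonic bases on the same strand with the annotated protein-coding gene AC008012.1, which averaged 0.173 TPM (siNC) and 1.23 TPM (siBCAT1), and the division of reads between them is uncertain. The summed PFKFB level was 6.50, 6.47 and 6.22 times that of TIGAR in siNC replicates 1, 2 and 3 and 5.64, 7.33 and 9.07 times in siBCAT1 replicates 1, 2 and 3, which overlapped.

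FBP1 was barely detected and was not tested. It was at 0.37, 0.26 and 0.20 TPM in replicates 1, 2 and 3 of siNC, compared with 0.35, 0.32 and 0.14 TPM in those of siBCAT1, and the groups overlapped. FBP2, the muscle form of the enzyme, was at 0.20 to 0.53 TPM. On chromosome 9 (94603133 to 94640249) the antisense gene PCAT7 shares 283 exonic bases with FBP1 and was more abundant, averaging 7.17 TPM (siNC) and 6.57 TPM (siBCAT1). Transcripts for the reverse reaction were thus far below those of PFK in both groups.

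**Figure D4:**
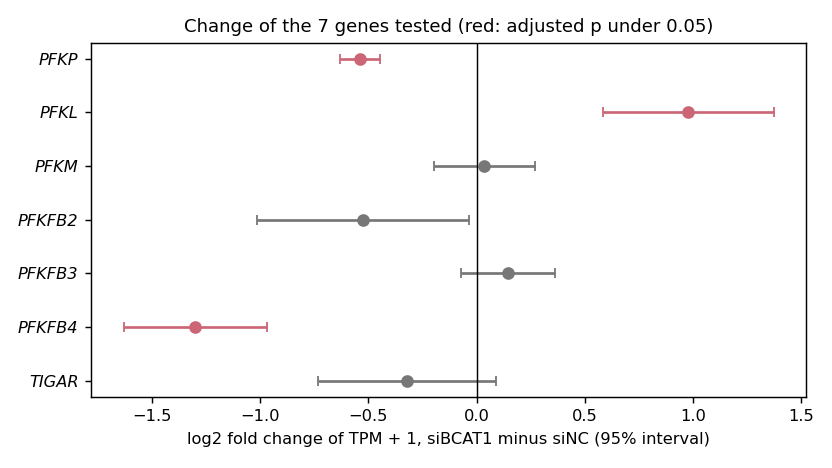
Points are the log2 fold change of TPM + 1 (siBCAT1 minus siNC) of the 7 genes tested and bars are 95% intervals; red marks an adjusted p under 0.05. PFKFB4 (-1.30) and PFKP (-0.54) lie left of 0 and PFKL (0.98) right of it, with intervals clear of 0.

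The order of levels in siNC cells was PFKP, PFKM, PFKL, PFKFB3, PFKFB4, TIGAR, PFKFB2 and FBP1, and of neighbours only PFKM and PFKL had ranges that overlapped. In siBCAT1 cells PFKL stood above PFKM, with no overlap, and TIGAR stood above PFKFB4, with ranges that overlapped. The places of the other genes were the same in both groups.

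For orientation in the genome, the stretch upstream of annotated starts is shown for the 3 genes that passed the test. The bases are from RefSeq windows on GRCh38.p14, 5′ to 3′ on the strand of the gene. Of each window, only the longest run outside the exons annotated in GENCODE 29 is shown. Capitals mark ACGTG or GCGTG on either strand, the core that hypoxia-inducible factor (HIF) binds. The PFKFB4 stretch is chr3:48556924-48556982 (minus strand), that of PFKL chr21:44299803-44300050 (plus strand) and that of PFKP chr10:3068939-3069188 (plus strand), the third of 4 annotated PFKP windows.
PFKFB4: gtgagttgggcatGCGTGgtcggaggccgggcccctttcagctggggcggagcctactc
PFKL: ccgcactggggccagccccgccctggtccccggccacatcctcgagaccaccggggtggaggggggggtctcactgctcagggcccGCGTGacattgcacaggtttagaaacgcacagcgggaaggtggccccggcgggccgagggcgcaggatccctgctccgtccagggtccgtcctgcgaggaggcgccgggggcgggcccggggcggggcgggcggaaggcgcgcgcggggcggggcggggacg
PFKP: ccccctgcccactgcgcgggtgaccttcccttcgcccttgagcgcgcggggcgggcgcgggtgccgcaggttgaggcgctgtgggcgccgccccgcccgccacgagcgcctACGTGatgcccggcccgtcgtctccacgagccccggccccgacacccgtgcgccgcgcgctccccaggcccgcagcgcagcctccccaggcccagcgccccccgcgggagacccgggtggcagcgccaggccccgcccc
Relative to the RefSeq start, the core begins at -166 in PFKFB4, -164 in PFKL and -139 in the PFKP window shown. The first and second PFKP windows hold no core, and the fourth holds 3, the nearest at -13. The place in PFKP thus depends on the window chosen. The PFKFB4 and PFKP stretches lie between exons within the span of the annotated gene, and that of PFKL lies just before it. Windows of 250 bases upstream were found for 7 of the 8 genes, all but PFKFB2, and 9 of their 17 windows, which overlap each other in PFKM, held the core, against 43.2% of all 35116 windows in the table. PFKP had it in 2 of 4 windows and PFKM in 1 of 7. The E-box CACGTG, which contains the core, was found in 1 window, of PFKFB3, against 6.34% of all windows. The GC box GGGCGG, searched on both strands, was found in 11 of the 17 windows, against 42.6% of all windows. In the whole windows it was found 5 times for PFKFB4, 7 times for PFKL and 0 to 4 times for PFKP. G and C made up 68.0% of the PFKFB4 window, 78.0% of the PFKL window and 54.0% to 81.6% of the PFKP windows. The part of base content in the matches was not tested. The core was present upstream of a gene that rose and of genes that fell, and such matches are letters in a window, not measured binding.

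The enzymes that make or use the same sugar phosphates were counted from a fixed list of 13, of which 10 were tested. This list, like the genes described here and the factors below, was chosen with earlier results of these data known. The counts beside the background are therefore a description and no independent support. After knockdown 6 had fallen and 1 had risen, against a background of 10.4% lower and 16.7% higher, and their median log2 fold change was -0.24, compared with 0.04 over all genes tested. The lower ones included both forms of the enzyme that draws fructose 6-phosphate into hexosamine synthesis. GFPT2 fell from 61.0 ± 12.1 to 18.3 ± 2.55 TPM (SD, n = 3 each; -1.67 on the log2 scale, standard error 0.16, adjusted p = 0.000788) and GFPT1 from 20.5 ± 2.11 to 10.4 ± 0.423 TPM (log2 fold change -0.91, standard error 0.10, adjusted p = 0.00112).

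The deaminases that return glucosamine 6-phosphate to fructose 6-phosphate went in opposite directions. In replicates 1, 2 and 3, GNPDA1 was at 21.7, 22.0 and 19.2 TPM (siNC) and at 48.8, 50.7 and 50.7 TPM (siBCAT1). The rise of 1.22 on the log2 scale had a standard error of 0.08 (adjusted p = 0.000204), while GNPDA2 fell from 12.1 to 8.42 TPM in the means (log2 fold change -0.47, adjusted p = 0.0106). The aldolases, which split fructose 1,6-bisphosphate, were lower as well, ALDOA by a log2 fold change of -0.28 (adjusted p = 0.00542) and ALDOC by -0.91 (adjusted p = 0.0141). ALDOA has annotated pseudogene copies, and its value is uncertain to the extent that reads are shared with them. GPI, the isomerase upstream of PFK, was lower by a log2 fold change of -0.20 (adjusted p = 0.0361). The GPI call was lost without any 1 library other than siNC replicate 2 (adjusted p 0.0502 to 0.116), and that of ALDOC without siNC replicate 1 or 3 or siBCAT1 replicate 2 or 3 (0.0601 to 0.0665). MPI, TALDO1 and TKT did not pass the threshold, with log2 fold changes of 0.29, -0.08 and -0.05. PFKFB1 and FBP2 were under the filter.

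Of 19 factors known to act on members of the family, 18 were tested, 3 were higher and 3 lower, against a background of 16.7% higher and 10.4% lower, so the share higher was at the background. HIF1A, the oxygen-regulated subunit of the factor that induces PFKFB3 and PFKFB4 in hypoxia, fell from 150.8 ± 13.4 to 93.4 ± 6.76 TPM (SD, n = 3 each; log2 fold change -0.68, adjusted p = 0.00195), and it has an annotated pseudogene copy that could share reads. SNAI1, a repressor of FBP1, fell from 52.3 ± 8.29 to 24.5 ± 1.15 TPM (log2 fold change -1.05, adjusted p = 0.00122), and FBP1 stayed near 0 in both groups. TRIM21, a ubiquitin ligase reported to act on PFKP protein, was lower by a log2 fold change of -0.39 (adjusted p = 0.0251). AKT1, a kinase that phosphorylates PFKFB2, rose by a log2 fold change of 0.50 (adjusted p = 0.00328) and MYC, an inducer of many glycolytic genes, by 0.43 (adjusted p = 0.0209). The calls of TRIM21 and MYC were lost with 1 library left out, TRIM21 without siNC replicate 1 or 3 or siBCAT1 replicate 1 or 3 (adjusted p 0.0754 to 0.0861) and MYC without any siNC replicate or siBCAT1 replicate 1 (0.0502 to 0.0906), and that of MYC also under median-ratio scaling (0.0635). The other 12, among them the AMPK subunits PRKAA1, PRKAB1, PRKAB2, PRKAG1 and PRKAG2, did not pass the threshold, and PRKAA2 was listed at 0 in every library.

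**Figure D5:**
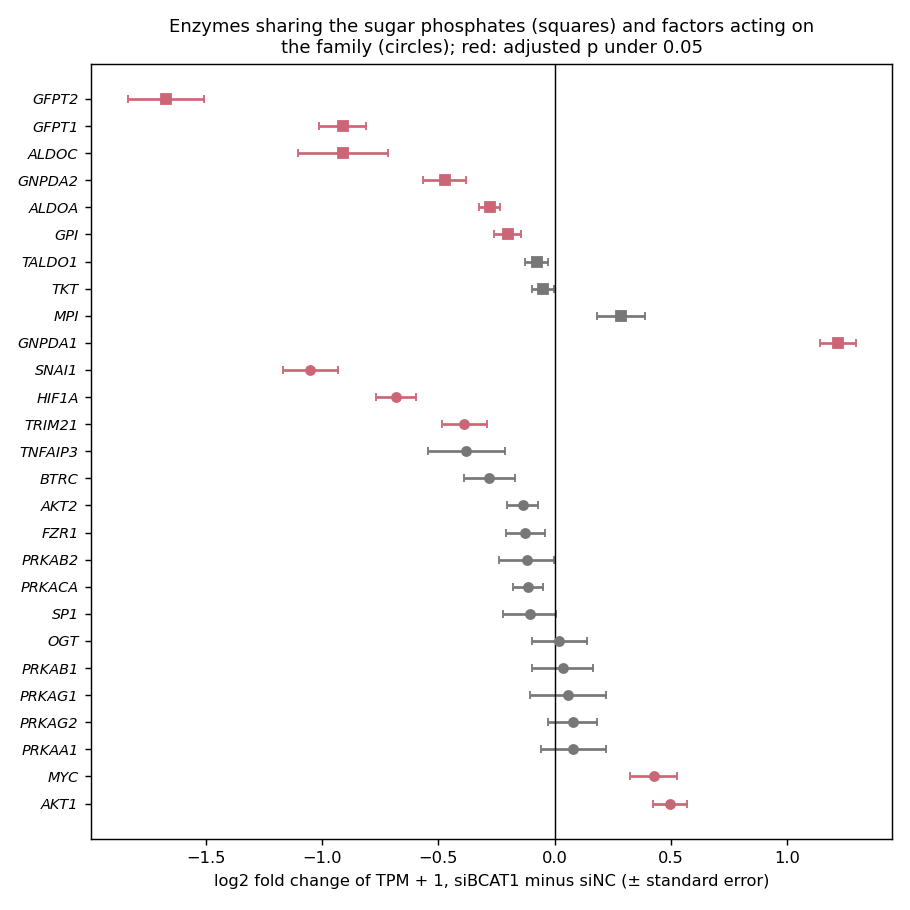
Points are log2 fold changes of TPM + 1 (siBCAT1 minus siNC) with standard errors, for 10 enzymes that share fructose phosphates with PFK (squares) and the reported factors that act on the family (circles); red marks an adjusted p under 0.05. GFPT2 (-1.67) and GNPDA1 (1.22) are the extremes.

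As a description of patterns, genes averaging 10 TPM or more over the 6 libraries together were ranked by the root mean square difference from PFKP or PFKL in centred log2(TPM + 1) over the 6 libraries. Of 8126 genes searched, MROH1 (0.014), PPIF (0.035) and PGRMC1 (0.036) were closest to PFKP. Closest to PFKL were FBF1 (0.11), ACOT13 (0.12) and PGM2L1 (0.13), whose siNC means of 6.60, 8.08 and 6.44 TPM were under that limit, so that they were included only through their siBCAT1 levels. As for PFKL, the siBCAT1 values of FBF1, ACOT13 and PGM2L1 were highest in replicate 1, a likeness by which they were chosen. The likeness rests on 6 libraries, which these genes share.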

How the data were processed

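RNA-seq libraries of 67R cells (3 siNC, 3 siBCAT1) were grouped and numbered from their titles. The authors deposited TPM values per gene, rounded to 2 decimals, beside a gene length. The unit was read from the values, which summed to between 992512 and 995593 per library. Per the labels, the tools were fastp, HISAT2 and StringTie with GRCh38, and their versions and the annotation are not given in the sources used here.

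For each gene averaging 1 TPM or more, log2(TPM + 1) was compared between groups by a moderated linear model (limma 3.58.1, R 4.3.3), two-sided, with a variance trend, Benjamini-Hochberg adjustment over all genes tested and a threshold of 0.05; every adjusted p is from this fit unless a permutation is named. The fit was also run on simulated data with independent genes, which checks the code and not the results given here. Shares, sums and ratios were compared by exact permutation (scipy 1.17.1). Alternatives were no filter, a filter at 5 TPM, a pseudocount of 0.1, median-ratio scaling, quantile normalization, no variance trend, the replicate number as a block and each library left out. All 8 genes were named, other genes where they passed the test, and the 3 genes most like PFKP and PFKL. Some genes of the fixed lists enter the counts but are not reported here by name. The members and lists were chosen with earlier results of these data known. Within a group, at most 1.42% of the genes tested had equal values in a pair of libraries, so none was taken as a duplicate. Positions and overlaps are from GENCODE 29, promoter windows from RefSeq.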

Additional observations from a re-analysis of the deposited data

How the results depend on the processing

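The counts of 1 gene higher and 2 genes lower were the same under all 13 alternatives, although PFKFB2 was not tested at a mean of at least 5 TPM and FBP1 was tested as well without the filter, and PFKP (log2 fold change -0.59 to -0.53), PFKFB4 (-1.42 to -1.20) and PFKL (0.76 to 1.10) kept their direction and an adjusted p under 0.05, at most 0.00486, 0.0117 and 0.0362. Under no filter, the filter at 5 TPM, no variance trend and the replicate block, a log2 fold change cannot differ from the main fit. Only its p-value could. PFKFB3 was at 0.096 under median-ratio scaling and 0.064 under quantile normalization, not called in either. PFKM had a log2 fold change of -0.014 under median-ratio scaling and -0.044 under quantile normalization, and between -0.025 and 0.12 with 1 library left out; the cause was not tested. The fixed lists were run under the same alternatives after the data were seen. Against 6 in the main fit, 4 to 7 enzymes of the fructose phosphate list were called lower. Of this list 1 was called higher, or 2 with the replicate block. Of the factors 2 to 5 were called lower, the 5 under quantile normalization, and 2 to 3 higher. Without the filter 31860 genes were tested and 2567 called, against 3865 of 14286, and the calls of GPI, ALDOC, TRIM21 and MYC were lost (adjusted p 0.0933, 0.0528, 0.0558 and 0.0741); without the variance trend those of GPI (0.115) and MYC (0.0521) were lost. Same-numbered libraries deviated together with correlations of 0.0844, 0.102 and 0.124 over genes. Differently numbered ones had correlations of -0.0814 to -0.0134, so each library correlated best with its own number. The labels name no pairs, and the main fit took none. Whether the numbers are pairs cannot be settled from the labels. The replicate block gave 4568 calls over all genes and left the calls of the 7 genes as they were. With groups of equal size a block cannot change a difference of means. The differences in share, sum and ratio were therefore bound to keep the same value, with a smallest possible exact p of 0.25. The block ended the call of GPI (adjusted p = 0.0543). TPM hold no depth, which limits values near 0 such as those of FBP1 and PFKFB2.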
